A study of Mus musculus with 3 samples.

Results

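The proximal kinases and adaptors of the T cell receptor were followed across early T cell development in the mouse thymus as 9 genes. The genes were chosen with earlier results of these data known. They are the Src family kinases Lck, Fyn and Blk, the Syk family kinases Zap70 and Syk, the Tec family kinase Txk, and the adaptors Lat, Lat2 and Lcp2 (SLP-76). Members were the rows with these symbols, and all 9 were listed once in each of the 3 count tables, which hold 28692, 28692 and 32285 genes in runs 1, 2 and 3. Single thymocytes of C57BL/6 mice with an age label of week 6 were sequenced by 10x 3′ single-cell RNA-seq, and each run was 1 library from 4 pooled thymi. Run 1 held total double-negative (DN) thymocytes and TCRγδ+ thymocytes, run 2 held CD44+ cells of the DN1 and DN2 stages, sorted to be free of TCRγδ, and run 3 held DN1 plus DN2, DN3 and TCRγδ+ thymocytes that were sorted apart and mixed. The DN sorts were negative for TCRβ, for CD4 and CD8, and for the B, myeloid and NK markers B220, CD11c, CD11b and NK1.1, no group carried a transgene or received a treatment, and since each sort was made once, the sort, the library and the pool of animals cannot be told apart. Of 23283 deposited cells, 21879 had 500 to 5000 genes and at most 7% mitochondrial counts, and these had a median of 5989.5, 4844.0 and 8507.0 unique molecular identifiers (UMIs, single captured transcripts) per cell in runs 1, 2 and 3.

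When a T cell receptor or pre-T cell receptor signals, Lck or Fyn phosphorylates the cytoplasmic motifs (ITAMs) of the CD3 chains, and Zap70 or Syk docks on them. The docked kinase phosphorylates Lat and Lcp2, which gather the enzymes that raise calcium and activate Ras. Syk and Lat2 (also called NTAL or LAB) are best known from B cells and myeloid cells, Blk from B cells and from thymocytes of the IL-17-producing γδ lineage, and Txk from T cells and natural killer cells.

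The genes lie on 8 chromosomes of the mm10 (GRCm38) genome, and the counts used here are of their transcripts as a whole. Lck (ENSMUSG00000000409) lies at chr4:129548344-129573641 on the minus strand. Fyn (ENSMUSG00000019843) is at chr10:39368855-39565381, plus strand. Blk (ENSMUSG00000014453) is at chr14:63372836-63417037, minus strand. The Syk family genes are Zap70 (ENSMUSG00000026117) at chr1:36761798-36782818 and Syk (ENSMUSG00000021457) at chr13:52583173-52648792, both on the plus strand. On chromosome 5, Txk (ENSMUSG00000054892) is at chr5:72695978-72752777 and Lat2 (ENSMUSG00000040751) at chr5:134600022-134615025, both on the minus strand. The other adaptors are Lat (ENSMUSG00000030742) at chr7:126363824-126369570, minus strand, and Lcp2 (ENSMUSG00000002699) at chr11:34046920-34092295, plus strand.

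Promoter windows of 300 bases, with 250 bases before a transcription start and 50 after it, were taken from RefSeq on GRCm38.p6 and matched 7 of the 9 symbols (Blk and Lat2 had none). The 4 windows shown are those of the 2 Lck starts, since Lck is known for a distal and a proximal promoter that 3′ counts cannot separate, and the first start of Zap70 and of Syk. Levels of Zap70 and Syk moved in opposite directions in the comparisons with the whole Trdc gate below. Capitals mark matches on either strand to AGGAAG (an ETS motif), CAGGTG (an E-box), TGTGGT (RUNX), AACAAT (SOX) or CTTTGA (TCF).
Lck, distal start, chr4:129573592-129573891, minus strand: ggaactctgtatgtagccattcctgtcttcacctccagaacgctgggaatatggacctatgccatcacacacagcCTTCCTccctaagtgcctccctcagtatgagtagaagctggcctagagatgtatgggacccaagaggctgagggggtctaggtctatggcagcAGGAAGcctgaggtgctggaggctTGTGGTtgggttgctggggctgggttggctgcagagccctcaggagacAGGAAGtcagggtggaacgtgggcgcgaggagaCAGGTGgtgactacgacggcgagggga
Lck, proximal start, chr4:129558323-129558622, minus strand: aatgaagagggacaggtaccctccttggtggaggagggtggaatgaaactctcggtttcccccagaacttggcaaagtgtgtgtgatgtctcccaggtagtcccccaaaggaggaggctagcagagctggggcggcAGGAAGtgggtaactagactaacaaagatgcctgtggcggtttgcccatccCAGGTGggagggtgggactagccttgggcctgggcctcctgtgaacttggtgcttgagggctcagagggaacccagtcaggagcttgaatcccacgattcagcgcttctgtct
Zap70, first start, chr1:36761548-36761847, plus strand: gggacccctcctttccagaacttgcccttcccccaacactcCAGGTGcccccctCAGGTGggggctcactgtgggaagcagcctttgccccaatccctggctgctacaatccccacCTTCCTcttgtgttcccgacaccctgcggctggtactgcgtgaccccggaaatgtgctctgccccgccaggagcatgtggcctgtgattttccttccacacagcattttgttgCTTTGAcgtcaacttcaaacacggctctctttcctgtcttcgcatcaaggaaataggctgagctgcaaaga
Syk, first start, chr13:52583187-52583486, plus strand: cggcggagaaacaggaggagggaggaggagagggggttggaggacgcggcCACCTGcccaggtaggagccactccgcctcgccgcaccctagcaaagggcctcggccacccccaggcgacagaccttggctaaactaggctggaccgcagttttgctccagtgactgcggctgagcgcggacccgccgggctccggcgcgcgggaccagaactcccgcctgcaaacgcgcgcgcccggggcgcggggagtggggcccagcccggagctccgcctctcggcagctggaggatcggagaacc
The distal Lck window held 3 ETS matches, 1 E-box and 1 RUNX match, and the proximal window 1 ETS match and 1 E-box. In the Zap70 window there were 1 ETS match, 2 E-boxes and 1 TCF match. The Syk window held 1 E-box and no ETS match. Of 32851 windows of the same length, 35.4% held the ETS letters, 20.2% the E-box, 16.8% the RUNX, 10.7% the SOX and 16.0% the TCF letters on either strand, so each of these matches is common and none is shown to be a bound site.

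Cells were placed in gates by UMIs of marker genes, none of them a member, and each cell entered at most 1 gate. A remaining Il7r gate (Il7r without Il2ra, Ptcra, Rag, Cpa3 or Kit) held 100, 569 and 565 cells in runs 1, 2 and 3. A further 1355, 1174 and 507 cells met no gate. Both groups were left out of the comparisons. The stages were a progenitor gate (Cd34, Flt3 or Kit without Il2ra, Ptcra or Rag), a DN2a gate (Cpa3 or Kit with Il2ra, without Ptcra or Rag), a DN2b gate (Cpa3 or Kit with Ptcra or Rag), a gate with Il2ra alone, DN3 gates (Ptcra or Rag without Cpa3 or Kit) that were resting or cycling, and a DN4 gate in which Cd4 or Cd8 transcripts had started. Receptor gates required Trdc or Trac, the constant chains of the γδ and αβ receptors. The Trdc gate needed at least 5 Trdc UMIs, at least 8 per 10000 UMIs, and no Ptcra UMI. The Trac gate needed at least 3 Trac UMIs and at least 3 per 10000. Since the DN3 gates required Ptcra or Rag UMIs, the Trdc and DN3 gates differ in Ptcra by construction. The Trdc gate was split by Sox13, a γδ lineage transcription factor, and Il2rb, an interleukin receptor chain, and the Trac gate by natural killer (NK) receptor genes. These are gates on transcripts, and surface receptor was not measured in these files. The Trdc gate held 581, 1567 and 1182 cells in runs 1, 2 and 3, although run 2 was sorted against TCRγδ. Its Sox13 subset (no Il2rb UMI) held 99, 281 and 581 of these, and its Il2rb subset (no Sox13 UMI) 30, 100 and 141. Levels of the whole Trdc gate thus mix subsets in proportions that differ between runs. The Trac gates held 26, 1938 and 943 cells in runs 1, 2 and 3, although the DN sorts were negative for TCRβ and NK1.1. Of these, 7, 400 and 199 cells were at the minimum of 3 Trac UMIs. In run 2 the resting DN3 gate held 531 cells and the cycling DN3 gate 318, although only CD44+ DN1 and DN2 cells were sorted. The 531 cells enter the comparisons with resting DN3, so run 2 is no sample of sorted DN3 cells there. Genes outside the gates followed the stages: Hhex, a progenitor factor, was at 177 and 135 CPM (a level defined below) in the progenitor gate of runs 2 and 3 and at 8.75 CPM or less in resting DN3, while Notch3 was at 92.9, 67.6 and 153 CPM in resting DN3 of the 3 runs.

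Several limits touch every value below. The progenitor gate held 2, 79 and 85 cells and the NK-receptor Trac gate 6, 1618 and 824 cells, so that both were used in runs 2 and 3 only (sums of at least 20 cells). Between 41.1% and 71.1% of the cells in the subsets of the Trdc gate also had a UMI of Cpa3, Kit, Rag1 or Rag2. These genes help to set the DN2 and DN3 gates. Il2ra, which also helps to set DN2a, was in 16.2%, 18.1% and 16.2% of Sox13 Trdc cells in runs 1, 2 and 3. In Il2rb Trdc cells it was in 16.7%, 31.0% and 16.3%. Among the 452, 1186 and 460 Trdc cells outside both subsets it was in 42.5%, 56.9% and 47.8%. By subset and run, Cpa3 was in 23.4% to 66.3% of cells, Kit in 4.04% to 20.6% and Rag1 or Rag2 in 0.709% to 15.1%. The paper, citing another study, also places Cpa3 in the γδ lineage program, so leaving such cells out can remove γδ cells. Calls lost without such cells in the Trdc gate are named below, with some of the other values. Cells with Il2ra alone stayed in the Trdc gate in that setting. The cells with Cpa3, Kit or Rag UMIs were not dropped. They could enter the later gates, DN2a and DN3 among them, so both sides of a comparison could change. Summed erythroid markers reached 724 CPM in the progenitor gate of run 2, and were at 99.2 CPM in that of run 3 and at 154 and 153 CPM in the DN2a gate of these runs. B cell markers summed to at most 70.4 CPM and myeloid or plasmacytoid markers to at most 54.4 CPM in the stage and receptor gates. The part of these cells in the results was not tested. Runs 1 and 2 shared 72 cell barcodes, runs 1 and 3 shared 1, and runs 2 and 3 none.

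A level is given in CPM (counts scaled to 1e6), the member's UMIs over all UMIs of the gate's summed cells, with an exact Poisson 95% interval that covers counting error only. Levels are compared between gates and not between genes. Resting DN3 cells had a median of 3157, 4402 and 7070 UMIs in runs 1, 2 and 3. DN2a cells had 4687, 7448 and 14082. A higher CPM is thus a larger share of a gate's UMIs and need not be more UMIs per cell. Differences between gates were tested with the edgeR quasi-likelihood test (two-sided) on the sums of each run and gate with run as a block, and p-values were adjusted by Benjamini-Hochberg over all genes tested, with a threshold of 0.05. The fit also rescaled the totals of the sums (TMM), which CPM levels do not, so small fitted differences can depart from those in CPM. The run term takes out differences in level between libraries. The spread is therefore that of gate differences between single libraries of different sorts, pooled over all gates in the fit. It is not a spread between replicates of a sort, and no p-value is given within a run. The sums alone do not tell fewer cells with a transcript from less transcript per cell. Shares of cells with a UMI are given below for Blk only.

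**Figure D1:**
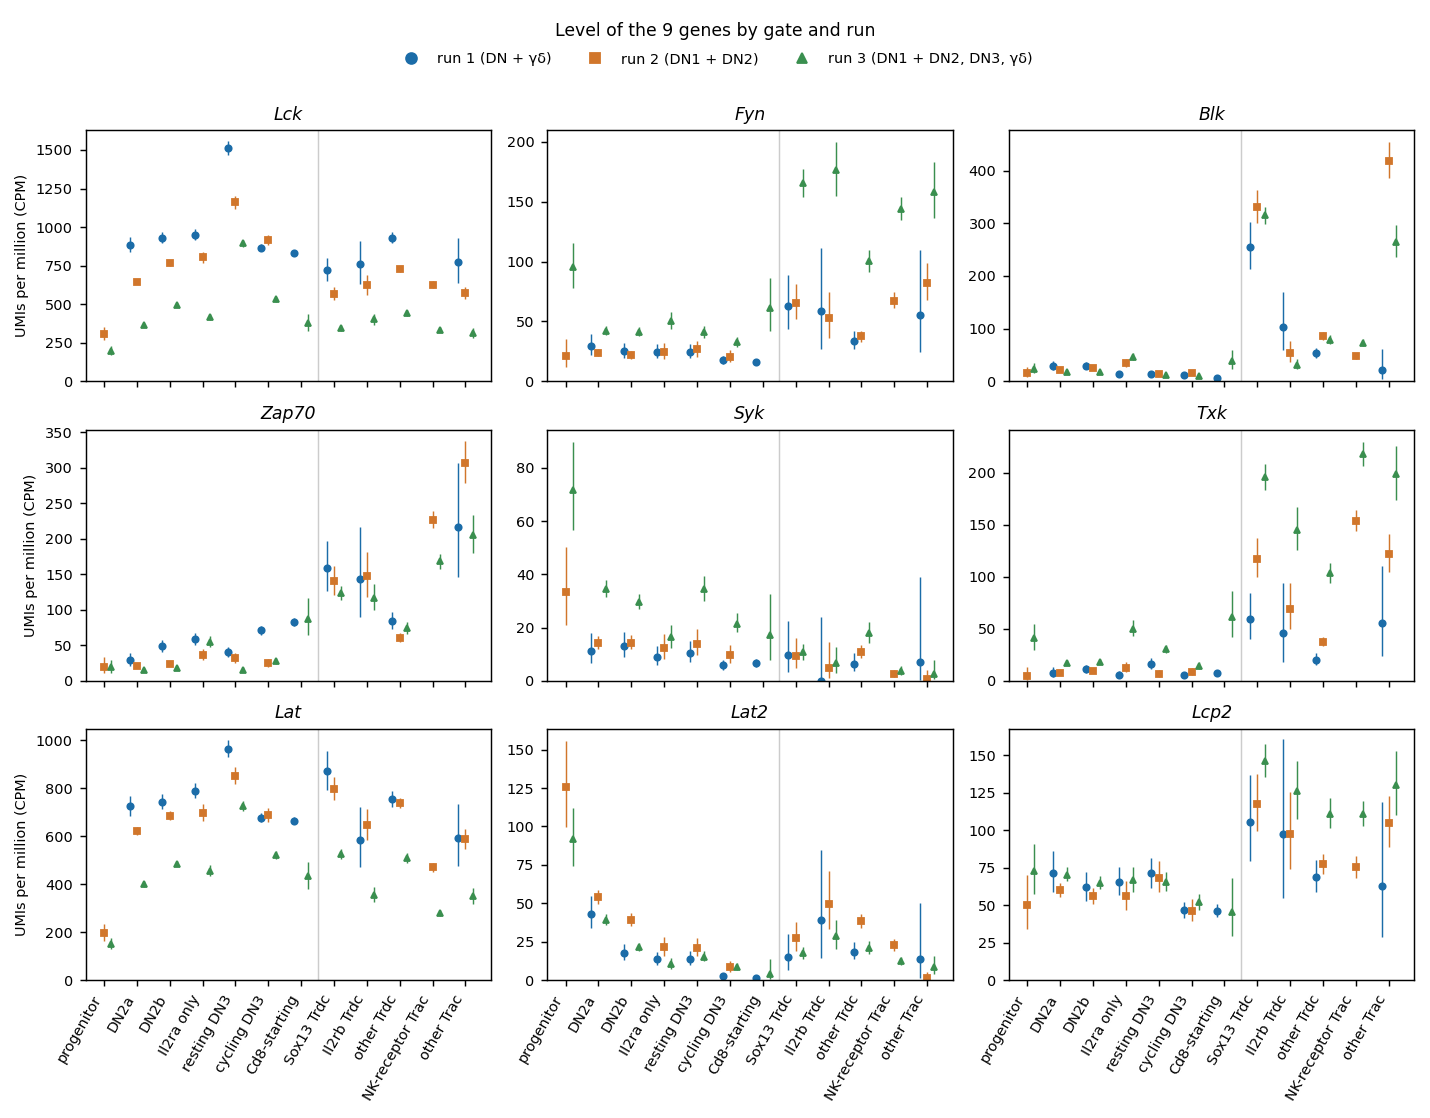
CPM of each gene (y axis, linear from 0) in 12 gates (x axis), with 1 point for each run and bars for the exact Poisson 95% interval; the grey line parts stage gates from receptor gates. Lck peaks in the resting DN3 gate of all 3 runs, Blk stands at 255 to 331 CPM in the Sox13 Trdc gate, and Syk is highest in the progenitor gate.

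Lck, the kinase that carries the first step of T cell receptor signaling, was at 885, 646 and 363 CPM in the DN2a gate of runs 1, 2 and 3, and at 1512, 1160 and 894 CPM in the resting DN3 gate. The resting DN3 gate was the highest of the stage and receptor gates in each run, and the intervals of both gates lay apart within every run. In the progenitor gate Lck was at 307 CPM (95% interval 266 to 352) in run 2 and 197 CPM (172 to 226) in run 3, the lowest levels in those runs. Lck was 2.06-fold lower in the progenitor than in the DN2a gate (log2 fold change -1.04, SE 0.13, adjusted p = 6.73e-06 by edgeR). From DN2a to resting DN3 it rose 1.99-fold (0.99, SE 0.10, adjusted p = 5.32e-08). The cycling DN3 gate was at 865, 914 and 532 CPM, back near the DN2b levels of 933, 770 and 497 CPM.

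Lck was lower again in the Trdc gate. It stood at 889, 699 and 395 CPM in the whole Trdc gate, 1.91-fold below resting DN3 (log2 fold change -0.94, SE 0.10, adjusted p = 1.96e-07). The NK-receptor Trac gate was at 627 CPM in run 2 and 335 CPM in run 3. This differed from the Trdc gate by -0.01 on the log2 scale (SE 0.12, adjusted p = 0.958). The Sox13 and Il2rb subsets of the Trdc gate also did not pass the test for Lck (-0.12, SE 0.11, adjusted p = 0.608).

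Fyn, the other Src family kinase best known from T cell receptor signaling, was low in all stage gates of runs 1 and 2, between 16.3 and 29.5 CPM, and higher in the receptor gates. In resting DN3 it was at 24.8, 26.6 and 41.1 CPM, and in the whole Trdc gate at 39.9, 42.6 and 139 CPM. The Trdc gate was the higher in each run, by 2.21-fold in the fit (log2 fold change 1.14, SE 0.20, adjusted p = 8.3e-05). Trac cells with NK receptors were at 67.4 and 144 CPM in runs 2 and 3, and above the Trdc gate (0.63, SE 0.19, adjusted p = 0.00965). This call was lost without run 2 (0.51, adjusted p = 0.201), in thinned cells (0.20, adjusted p = 0.433) and without the Trdc cells with Cpa3, Kit or Rag UMIs (0.31, SE 0.22, adjusted p = 0.296). In run 3 the levels of both gates, 144 and 139 CPM, were close. In the progenitor gate Fyn was at 21.2 CPM in run 2 and 95.4 CPM in run 3 against 24.0 and 42.1 CPM in DN2a, and did not pass (0.73, SE 0.28, adjusted p = 0.104).

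Blk separated the receptor gates. It was at 14.2, 14.3 and 11.6 CPM in resting DN3 and at 88.8, 119 and 179 CPM in the whole Trdc gate, 9.76-fold higher (log2 fold change 3.29, SE 0.41, adjusted p = 9.06e-07), and by 4.33 on the log2 scale in thinned cells. Within the Trdc gate the Sox13 subset was at 255, 331 and 315 CPM and the Il2rb subset at 104, 54.5 and 31.5 CPM. The 2 subsets lay apart in each run, with Blk 7.07-fold higher in the Sox13 subset (2.82, SE 0.43, adjusted p = 3.82e-05), and 4.01 on the log2 scale with gates raised by 1 UMI. With the Cpa3, Kit and Rag cells left out, which leaves 2 runs, the difference was 2.51 (SE 0.56, adjusted p = 0.00819).

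The share of cells with a Blk UMI followed the same order. For these shares the gates were those set from all UMIs. With every cell thinned to 2000 UMIs, 46.5%, 49.1% and 44.3% of Sox13 Trdc cells had a Blk UMI in runs 1, 2 and 3. In Il2rb Trdc cells the shares were 10.0%, 8.00% and 3.57%, and in resting DN3 cells, the low reference here, 3.21%, 2.07% and 1.80%. At full depth 58.6%, 62.3% and 75.4% of Sox13 Trdc cells had one, at a median of 4192, 3376 and 6735 UMIs per cell, against 4.81%, 6.03% and 5.92% of resting DN3 cells at 3157, 4402 and 7070 UMIs. Thinning left out 1 Sox13 Trdc cell and 5 resting DN3 cells of run 3.

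In the Trac gates Blk was split as well. Cells with Trac but few NK-receptor UMIs were at 419 and 265 CPM in runs 2 and 3 (320 and 119 cells), and at 20.9 CPM in run 1, where the gate held 20 cells. In runs 2 and 3 the whole Trdc gate was at 119 and 179 CPM, its Sox13 subset at 331 and 315 CPM and its Il2rb subset at 54.5 and 31.5 CPM. Trac cells with NK receptors were at 47.9 and 73.4 CPM, below the Il2rb subset in run 2 and above it in run 3, which was not tested. They were below the Trdc gate (log2 fold change -1.03, SE 0.37, adjusted p = 0.026), and this call was not made by DESeq2 (-0.98, adjusted p = 0.267) or without run 2 (-0.90, adjusted p = 0.304), while thinned cells gave -3.73. The same Trac cells with few NK-receptor UMIs had Zbtb16 (PLZF), a transcription factor of innate-like T cells, at 80.6 and 246 CPM in runs 2 and 3.

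Zap70, the kinase that docks on phosphorylated CD3 chains in mature T cells, was low through the DN2 and resting DN3 gates and higher in receptor gates. It was at 28.9, 20.6 and 15.6 CPM in DN2a and 40.1, 31.4 and 15.5 CPM in resting DN3, which did not pass the test (log2 fold change 0.35, SE 0.32, adjusted p = 0.44). The progenitor gate, at 19.7 and 18.9 CPM in runs 2 and 3, did not pass against DN2a either (0.10, SE 0.58, adjusted p = 0.963). The DN4 gate with starting Cd4 or Cd8 was at 82.1 CPM in run 1 (903 cells). In run 3, for which DN4 cells were not sorted, 32 cells fell in this gate, at 87.7 CPM. The whole Trdc gate was at 99.5, 78.0 and 102 CPM, above resting DN3 in each run and 3.49-fold higher in the fit (1.80, SE 0.29, adjusted p = 2.91e-05). In Trac cells Zap70 was highest, at 216, 307 and 206 CPM where NK-receptor UMIs were few. With NK receptors, at 227 and 168 CPM in runs 2 and 3, it was 2.76-fold above the Trdc gate (1.46, SE 0.27, adjusted p = 8.79e-05). Sox13 and Il2rb Trdc cells were at like levels of Zap70, 159, 140 and 123 CPM against 143, 147 and 117 CPM (0.04, SE 0.28, adjusted p = 0.981).

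Syk, its relative, ran the other way in the comparisons with the whole Trdc gate, and not over the early stages. It was highest in the progenitor gate of runs 2 and 3, at 33.3 CPM (95% interval 20.8 to 50.3) in run 2 and 71.8 CPM (56.6 to 89.8) in run 3, against 11.3, 14.1 and 34.5 CPM in DN2a. The progenitor gate was 2.23-fold above DN2a (log2 fold change 1.16, SE 0.23, adjusted p = 0.00122), a call that was lost without run 3 (1.27, adjusted p = 0.0902) and with cells thinned to 2000 UMIs (0.08, adjusted p = 0.981). Resting DN3, at 10.3, 13.9 and 34.5 CPM, did not differ from DN2a in the test (-0.02, SE 0.18, adjusted p = 0.966).

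In the receptor gates Syk was lower. The whole Trdc gate was at 6.66, 10.2 and 13.1 CPM, 1.96-fold below resting DN3 (log2 fold change -0.97, SE 0.19, adjusted p = 0.000341). Without its Cpa3, Kit and Rag cells, some of which could then enter resting DN3, the difference was -1.82 (SE 0.24, adjusted p = 2.89e-06). Leaving out run 3 from the first of these fits took its call away (-0.49, adjusted p = 0.2). Trac cells with NK receptors had 2.49 and 3.60 CPM in runs 2 and 3 and were 3.41-fold below the Trdc gate (-1.77, SE 0.27, adjusted p = 1.05e-05). Against the Trdc gate without the Cpa3, Kit and Rag cells it was -0.82 (SE 0.32, adjusted p = 0.0581).

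The share of Zap70 among Zap70 and Syk UMIs set both kinases on 1 scale, on which only the change between gates can be read. In run 3 the share was 20.8% (exact 95% interval 13.2 to 30.3) in the progenitor gate, 31.2% (27.6 to 34.9) in DN2a and 31.0% (26.1 to 36.3) in resting DN3, 56.2% in cycling DN3, 92.1% in Sox13 Trdc cells and 97.9% (96.8 to 98.7) in the NK-receptor Trac gate. Run 2 gave 37.1% in the progenitor gate, 59.3% in DN2a, 69.3% in resting DN3, 93.9% in Sox13 Trdc cells and 98.9% in the NK-receptor Trac gate. In run 1 the DN2a gate was at 71.9% and resting DN3 at 79.6%, and Sox13 Trdc cells were at 94.3%. Cycling DN3 (92.5%, 89.8 to 94.6) and the DN4 gate (92.6%, 90.7 to 94.3) of run 1 were near that share. Trdc cells outside the Sox13 and Il2rb subsets were at 92.9%, 84.8% and 80.6% in runs 1, 2 and 3. A high share was thus not limited to the receptor gates. The share was thus higher in Sox13 Trdc cells than in DN2a and resting DN3 of every run, while DN2a and resting DN3 were level in run 3 and the runs stood far apart within the early gates.

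Among the Src family the share of Lck UMIs was highest in resting DN3, at 97.5%, 96.6% and 94.4% of Lck, Fyn and Blk UMIs in runs 1, 2 and 3. It was lower in Sox13 Trdc cells, at 69.4% (65.4 to 73.3), 58.9% (56.1 to 61.6) and 41.8% (40.3 to 43.4). Blk made up 24.5%, 34.3% and 38.2% of the UMIs there, against 0.915%, 1.19% and 1.22% in resting DN3. Sox13 Trdc cells were not alone in this. Trac cells with few NK-receptor UMIs had a Lck share of 53.3% and 42.4% in runs 2 and 3, with Blk at 39.1% and 36.1%. In run 1, with 20 cells, these were 91.0% and 2.46%. The remaining Il7r gate, outside the stage and receptor gates, had Blk at 1.40%, 26.5% and 22.9% in runs 1, 2 and 3. The NK-receptor Trac gate had a Lck share of 84.5% and 60.7% in runs 2 and 3. Il2rb Trdc cells kept a Lck share of 82.4%, 85.3% and 65.9%, with Blk at 11.3%, 7.45% and 5.17%. The lower Lck share of run 3 went with Fyn, which was 29.0% of the UMIs in Il2rb Trdc cells of run 3 and 7.22% in run 2.

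**Figure D2:**
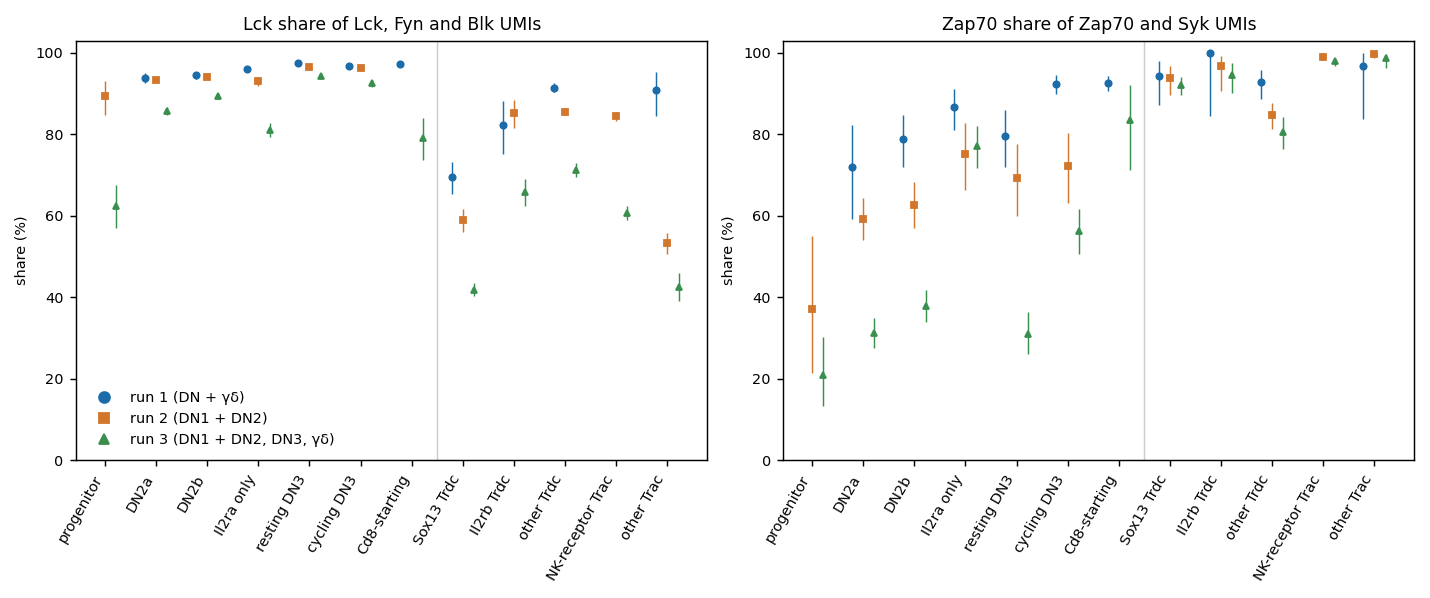
Share of Lck among Lck, Fyn and Blk UMIs (left) and of Zap70 among Zap70 and Syk UMIs (right), in percent (y axis) by gate (x axis) and run, with exact Clopper-Pearson 95% intervals as bars. The Lck share falls to 41.8 to 69.4% in Sox13 Trdc cells. In Trac cells with few NK-receptor UMIs (other Trac) it is 53.3% in run 2 and 42.4% in run 3. The Zap70 share is above 90% in Sox13 Trdc and NK-receptor Trac cells of every run shown. In run 1 the Zap70 share is also above 90% in the cycling DN3 and Cd8-starting gates.

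Txk, a Tec family kinase that acts downstream of the receptor, was low in the stage gates and high in the receptor gates. It was at 16.0, 6.36 and 30.3 CPM in resting DN3 and 27.9, 51.3 and 150 CPM in the whole Trdc gate, 3.94-fold higher (log2 fold change 1.98, SE 0.31, adjusted p = 2.52e-05). Without the Cpa3, Kit and Rag cells this was 2.65, and in thinned cells 2.98. The highest levels were in Trac cells with NK receptors, at 154 and 218 CPM in runs 2 and 3, 2.59-fold above the Trdc gate (1.37, SE 0.27, adjusted p = 0.000227). Without the Cpa3, Kit and Rag cells of the Trdc gate this was 0.72 (SE 0.31, adjusted p = 0.0789), without run 2 it was 0.92 (adjusted p = 0.0834), without run 3 2.02 and in thinned cells 0.57. DN2a, at 7.54, 7.36 and 17.2 CPM, was below resting DN3 in runs 1 and 3 and above it in run 2 (0.82, SE 0.36, adjusted p = 0.0899).

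Lat, the membrane adaptor that Zap70 phosphorylates, moved with Lck over the stages. In the progenitor gate it was at 195 and 151 CPM in runs 2 and 3, in DN2a at 726, 620 and 400 CPM and in resting DN3 at 964, 851 and 724 CPM. Each step was larger than the counting intervals in every run. Lat was lower in progenitors than in DN2a (log2 fold change -1.59, SE 0.13, adjusted p = 1.45e-08), by -2.83 in thinned cells, and 1.51-fold higher in resting DN3 (0.59, SE 0.10, adjusted p = 5.33e-05). The Trdc gate at 765, 741 and 496 CPM was 1.32-fold below resting DN3 (-0.40, SE 0.10, adjusted p = 0.0034), a call lost without run 3 (-0.27, adjusted p = 0.219). Trac cells with NK receptors were at 469 and 280 CPM, below the Trdc gate (-0.51, SE 0.11, adjusted p = 0.000789), which was lost without run 3 as well (-0.33, adjusted p = 0.144). Sox13 Trdc cells at 869, 797 and 526 CPM were above Il2rb Trdc cells at 585, 646 and 356 CPM (0.50, SE 0.11, adjusted p = 0.00254), although not without run 3 (0.45, adjusted p = 0.311) or without the Cpa3, Kit and Rag cells (0.43, adjusted p = 0.0932).

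Lat2, the related adaptor of B and myeloid cells, fell where Lat rose. It was at 125 and 91.6 CPM in the progenitor gate of runs 2 and 3, at 43.3, 54.1 and 39.4 CPM in DN2a and at 13.8, 20.7 and 15.4 CPM in resting DN3, with the same order in each run. The progenitor gate was 2.18-fold above DN2a (log2 fold change 1.13, SE 0.25, adjusted p = 0.00411), a call that was lost without run 2 (1.11, adjusted p = 0.077) and in thinned cells (0.95, adjusted p = 0.343). Resting DN3 was 2.66-fold below DN2a (-1.41, SE 0.23, adjusted p = 2.88e-05). Cycling DN3 was lower still at 2.53, 8.35 and 8.39 CPM. The Trdc gate at 19.0, 37.4 and 20.5 CPM did not pass against resting DN3 (0.55, SE 0.23, adjusted p = 0.0791), and without its Cpa3, Kit and Rag cells the difference was 0.01 (SE 0.27).

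Lcp2, the cytosolic adaptor SLP-76, ranged from 45.7 to 146 CPM over the 12 gates, the smallest ratio of highest to lowest level among the 9 genes. It was at 71.6, 59.96 and 70.5 CPM in DN2a and 71.3, 68.4 and 65.6 CPM in resting DN3 (log2 fold change 0.04, SE 0.15, adjusted p = 0.891). The Trdc gate was at 76.4, 84.6 and 129 CPM, 1.39-fold above resting DN3 (0.47, SE 0.14, adjusted p = 0.0128). This call was lost without run 3 (0.22, adjusted p = 0.342) and without run 2 (0.56, adjusted p = 0.0732). Lcp2 did not pass between the Sox13 and Il2rb subsets (0.23, SE 0.15, adjusted p = 0.44 by edgeR). Nor did it pass between the NK-receptor Trac and the whole Trdc gate (0.14, SE 0.15, adjusted p = 0.488). In CPM the NK-receptor Trac gate was the lower there, at 75.5 and 111 CPM in runs 2 and 3.

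Taken by comparison, 2 of the 9 genes were higher and 2 lower in the progenitor than in the DN2a gate, where 9.38% of 11200 genes tested passed, 4.84% higher and 4.54% lower. Between resting DN3 and DN2a, 2 were higher and 1 lower, beside 31.2% of all genes, 14.9% higher and 16.3% lower. In the Trdc against the resting DN3 gate 5 were higher and 3 lower, beside 28.3%, with 15.2% higher and 13.1% lower. For the NK-receptor Trac against the Trdc gate 3 were higher and 3 lower, beside 43.3%, with 20.4% higher and 22.9% lower. Between the Sox13 and Il2rb subsets, 2 were higher and 0 lower, beside 6.76% of 11259 genes, 3.11% higher and 3.65% lower, by edgeR. The count of lower members was also 0 by DESeq2, and 1 (Lat2) at an unadjusted p under 0.05. The comparisons share gates, so that the Trdc gate, for example, enters 2 of them.

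**Figure D3:**
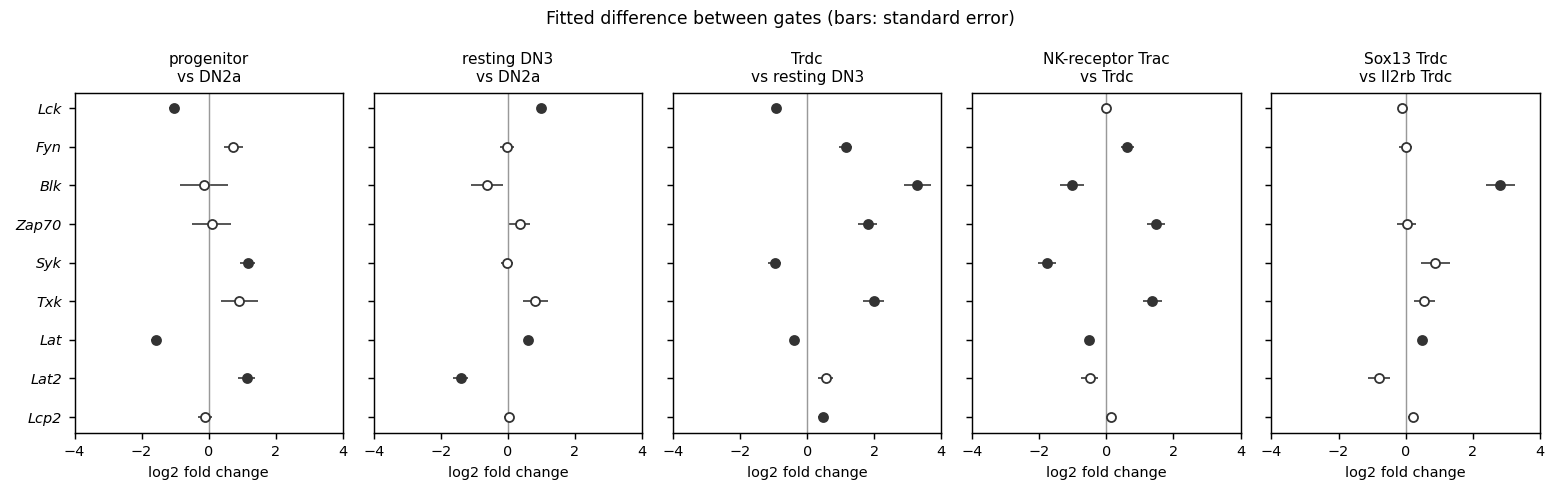
Fitted log2 fold change (x axis) of the 9 genes (y axis) in the 5 comparisons between gates, with the standard error as bars; filled points have an adjusted p under 0.05 by edgeR, and a positive value is higher in the gate named first. Blk is at 3.29 in the Trdc against the resting DN3 gate and at 2.82 in Sox13 against Il2rb Trdc cells, and Zap70 and Syk lie on opposite sides of 0 in the comparisons that involve the whole Trdc gate.

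The libraries differed in level beyond the gates. In each of the 9 gates with 3 runs, Lck and Lat were lowest and Fyn and Txk highest in run 3. Fyn in Sox13 Trdc cells, for example, was at 63.2 and 65.5 CPM in runs 1 and 2 and 165 CPM in run 3. Sort, library and kit cannot be told apart here, and levels are therefore read within a run.

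The receptor chains with ITAMs (Cd3e, Cd3d, Cd3g, Cd247, Fcer1g and Tyrobp), on which these kinases act, were counted in each comparison. Of the 6, 3 were lower and 2 higher in the progenitor than in the DN2a gate, with Cd3g at -2.76 (SE 0.24) and Cd3e at -1.77 (SE 0.21) on the log2 scale, and Tyrobp at 3.09 (SE 0.29) and Fcer1g at 1.92 (SE 0.36), the adaptor chains of NK and myeloid receptors. In resting DN3 against DN2a 4 were higher and 2 lower, led by Cd3d at 3.31 (SE 0.23) and Tyrobp at -3.11 (SE 0.39). In the Trdc against the resting DN3 gate Cd3d (-1.34, SE 0.21), Cd3g and Cd3e were lower and Cd247, the zeta chain, was higher (0.70, SE 0.15). The NK-receptor Trac gate had Fcer1g at 4.07 (SE 0.32) and Cd247 at -1.32 (SE 0.18) against the Trdc gate, with 4 higher and 1 lower. Fcer1g was lower (-3.46, SE 0.49) and Cd247 higher (0.97, SE 0.16) in Sox13 than in Il2rb Trdc cells. The median over the 6 was -0.74, 0.78, -0.31, 0.73 and 0.09 in the 5 comparisons in this order, and that of all genes lay between -0.04 and 0.02.

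Of 14 downstream and partner genes, 4 were lower and 0 higher in the progenitor than in the DN2a gate by edgeR, among them Skap1 (-1.92, SE 0.24), Themis (-1.87, SE 0.29) and Fyb (-1.49, SE 0.14). Resting DN3 had 2 higher, Themis (0.85, SE 0.15) and Grap2 (0.66, SE 0.15), which binds Lcp2, and 1 lower, Grb2 (-0.82, SE 0.13). The Trdc gate had 6 higher than resting DN3 and 2 lower. Rasgrp1, the exchange factor that activates Ras, was at 2.19 (SE 0.23) and Prkcq, a protein kinase C of T cells, at 1.16 (SE 0.20). Against the Trdc gate the NK-receptor Trac gate had 3 higher and 5 lower, with Themis at -2.48 (SE 0.21) and Rasgrp1 at -1.28 (SE 0.24). In Sox13 against Il2rb Trdc cells 4 were higher, Rasgrp1 (1.34, SE 0.22), Grap2 (1.01, SE 0.16), Grb2 (0.73, SE 0.14) and Fyb (0.64, SE 0.13), and 0 lower. The medians of the 14 were -0.55, 0.22, 0.12, -0.06 and 0.29.

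Negative regulators and phosphatases were counted in the same way. Of 15, 7 were higher and 3 lower in the Trdc than in the resting DN3 gate, with Cd5 at 3.54 (SE 0.36), Ubash3b at 3.16 (SE 0.46), Cd6 at 2.40 (SE 0.29) and the adaptor Dok2 at 1.60 (SE 0.18). In the NK-receptor Trac against the Trdc gate 10 were higher and 0 lower by edgeR, among them Ptpn6 (SHP-1) at 1.69 (SE 0.17) and Ptpn22 at 1.22 (SE 0.10). In the earlier steps 3 were higher and 3 lower in progenitors, and 5 higher and 3 lower in resting DN3, where Cblb, a ubiquitin ligase, was at 1.65 (SE 0.14) and Cd5 at -1.76 (SE 0.41). Between the Sox13 and Il2rb subsets 4 were higher and 5 lower, with Ubash3b at -2.75 (SE 0.44). The medians of the 15 were 0.37, 0.19, 0.33, 0.68 and -0.23 in the order of comparisons above.

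The last list held kinases and adaptors of B and myeloid cells. Of 7, 6 were tested (Blnk was not) and 5 were higher in the progenitor than in the DN2a gate, with Pik3ap1 at 2.15 (SE 0.45), Lyn at 1.43 (SE 0.23) and Plcg2 at 1.12 (SE 0.23). From DN2a to resting DN3 4 were lower, Btk at -3.30 (SE 0.35) among them. Btk was higher in the Trdc than in the resting DN3 gate (1.45, SE 0.41) and lower in the NK-receptor Trac than in the Trdc gate (-2.17, SE 0.46), while Pik3ap1 was at 3.51 (SE 0.41) there. None of the 6 passed between the Sox13 and Il2rb subsets. The medians of the 6 were 1.61, -1.28, 0.04, -0.91 and -0.49.

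Cells with B cell transcripts gave a reference for genes that a B cell should or should not hold. In run 3 the B gate held 571 cells, with Syk at 144 CPM (95% interval 133 to 155), Blk at 85.7 CPM and Lat2 at 62.8 CPM, all above resting DN3 of the same run. Lck was at 281 CPM, Lat at 252 CPM and Zap70 at 24.8 CPM there. The gate thus also held T cell transcripts and is no clean reference for Lck, Lat or Zap70.

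The genes whose levels were most like a member's were found over 33 sums of a run and gate among 8396 genes, as a description with Pearson's r of log2(CPM + 1), where sums share libraries. Lck was most like Ttll12 (0.892), Lat (0.890) and Tmem242 (0.887), and Lat like Lck, Thy1 (0.888) and Gm11579 (0.854). Zap70 was most like Itgb2 (0.920), Rgs10 (0.917) and AB124611 (0.898). Syk was most like P2ry14 (0.915) and Angpt1 (0.901), and Lat2 like Napsa (0.852), Cxxc5 (0.848) and Ms4a6c (0.838). For Blk these were Rab19 (0.901), Pdia3 (0.879) and Ppp1r16b (0.864), for Txk Cd226 (0.954), Timp2 (0.936) and Arhgap25 (0.932), for Fyn Dennd1c (0.941), Ankrd44 (0.940) and Sesn3 (0.939), and for Lcp2 Tecpr1 (0.921), Ptprcap (0.916) and Prkcq (0.890).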

How the data were processed

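UMI counts per gene and cell were deposited as whole numbers without normalization. The authors aligned 10x Chromium 3′ reads to mm10 with Cell Ranger, version 4.0.0 in run 3 by its file header and not given by run for the others, like the kit (V2 or V3.1). Total UMIs were 39947415, 52797915 and 98533329, and their number limits precision to counting error at best. Filters were 500 to 5000 genes per cell and a ceiling of 7% mitochondrial counts. Doublets stayed in, and an alternative dropped the top 10% of Scrublet scores (scanpy 1.11.5).

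Gates used 37 marker genes, by minimum UMIs of some and the absence of others, and all 37 were left out of the genes tested. Counts of at least 20 cells per run and gate were summed and tested in edgeR 4.0.16 (R 4.3.3) with TMM, filterByExpr, gate and run as terms, and the quasi-likelihood test, 1 fit holding all stage and receptor gates, over genes listed in all runs (27734). Standard errors were taken from the F statistic. Tested on simulated data for the Trdc against the resting DN3 gate (11114 genes), the fit recovered 94 of 100 genes changed by a log2 of 1 and 99 of 100 changed by 2, with 14 false calls of 207. The changed genes were drawn from those with a mean above 20 CPM over the sums, so recovery of lower genes was not tested. Alternatives were RLE scaling, DESeq2 1.42.0, a minimum of 1 count, other gates, cells and depth, no run term, and each run left out.

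The 9 genes, the gene lists and the comparisons were chosen with earlier results of these data known. Named genes were all 9 members, up to 4 genes per list with the largest change past the threshold, and the 3 genes most like each member. A few genes under this rule are not reported here. Gene spans are from the GENCODE annotation and promoters from RefSeq.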

Additional observations from a re-analysis of the deposited data

How the results depend on the processing

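Of 45 values of a member in a comparison, 23 passed the threshold, and these lost it in 20 cases with run left out of the model, 6 without run 3, 5 without run 2, 4 with thinned cells, 4 with the Cpa3, Kit and Rag cells out of the Trdc gate, 1 by DESeq2 and 1 with only the 2 gates compared in the fit (Lcp2 in Trdc against resting DN3). No called member changed sign. The Trdc gate without such cells was chosen after seeing the data, and the cells could then enter the stage gates compared.

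The labels give no replicate numbers that pair samples, and run was the replicate block. In the order progenitor against DN2a, resting DN3 against DN2a, Trdc against resting DN3, NK-receptor Trac against Trdc, and Sox13 against Il2rb, the genes called were 1050, 3499, 3171, 4854 and 761 with the replicate block and 67, 477, 416, 959 and 47 without it. Without the block, Lat (progenitor against DN2a), Blk and Zap70 (both Trdc against resting DN3) still passed. Thinned to 2000 UMIs, with gates set anew, the counts were 212, 1430, 1967, 2715 and 58, the last from 1 run. Leaving out each run gave 193 to 1351, 1700 to 3254, 1549 to 2813, 2380 to 4916 and 73 to 858, the lowest without run 3, or without run 2 for the NK-receptor Trac gate. Comparisons with 2 runs then rest on 1, whose lone sums are assumed to vary like the other gates. The count between Sox13 and Il2rb cells was 349 without Cpa3, Kit and Rag cells. RLE scaling and DESeq2 raised the share of higher genes among those called between progenitor and DN2a from 51.6% to 63.0% and 64.4%.

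There were 44 sign changes, all of members that did not pass in either fit. In the progenitor gate against DN2a, Blk was at 0.0855 with only the 2 gates fitted and 0.40 without Cpa3, Kit and Rag cells in the Trdc gate, where Lcp2 was at 0.12. Zap70 there was at -0.14 without the block, -0.12 with gates raised by 1 UMI, -0.67 thinned and -0.0066 in all deposited cells. In resting DN3 against DN2a, Fyn was at 0.0123 by RLE, 0.0081 by DESeq2 and 0.0506 with raised gates. Syk was at 0.016 by RLE, 0.0060 by DESeq2, 0.0088 in all cells and 0.016 without Cpa3, Kit and Rag cells, and Lcp2 was at -0.15 thinned and -0.0175 without those cells. In the NK-receptor Trac against the Trdc gate, Lck was at 0.0699 by RLE, 0.07 by DESeq2, 0.0395 with a minimum of 1 count, 0.0194 with 2 gates fitted and 0.0197 with raised gates, 0.30 thinned, 0.0039 at 5% mitochondrial counts, 0.042 without the top 10% of doublet scores and 0.12 without the Cpa3, Kit and Rag cells. Lat2 was at 0.19 without those cells and Lcp2 at -0.20 thinned. In Sox13 against Il2rb cells, Lck was at 0.29 thinned. Fyn was at -0.0086 with the 5% limit, -0.0465 without the top doublet scores and -0.0816 without Cpa3, Kit and Rag cells, and Zap70 at -0.28 with raised gates, -0.70 thinned and -0.10 without those cells. Leaving out each run gave, from progenitor against DN2a, ranges of -0.63 to 0.0030 for Blk, -0.20 to 1.02 for Fyn and -0.72 to 1.14 for Txk. They were -0.0645 to 0.0035 for Fyn and -0.0268 to 0.11 for Lcp2 in resting DN3, -0.11 to 0.10 for Lck in the NK-receptor Trac gate, and -0.0818 to 0.30 for Fyn and -0.0126 to 0.10 for Zap70 between Sox13 and Il2rb. The causes were not tested.

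Of 297 levels, 192 of 261 that could be computed moved outside their counting interval with thinned cells, 85 as a mean over cells, 72 of 279 with raised gates and 2 at the 5% mitochondrial limit. Depth limits the low levels: Syk in Il2rb Trdc cells of run 1 had 0 UMIs, with an exact 95% interval up to 24.0 CPM.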
